A study of Culex quinquefasciatus with 20 samples.

Results

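The Sebring colony, the laboratory susceptible strain of *Culex quinquefasciatus*, was near silent for 40 genes that were transcribed in every group of field mosquitoes. A gene entered this set when its mean was at most 0.2 CPM in the colony (CO) and at least 1 CPM in each of 3 field groups (MR, MS and WI), where CPM is the count scaled to library size with TMM factors and not corrected for gene length. The set held 40 of 17499 tested genes (0.229%) out of 19793 genes counted. The levels in these same libraries chose the genes, so each field group set against CO is a description below, with no test, and the tests are among the field groups, where the rule asked for no more than a mean of 1 CPM.

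RNA was sequenced from 20 libraries, 5 per group, each a pool of 10 females (bodies less the leg used for a PCR specific to the *Culex pipiens* complex). The MR group was field females still alive 24 h after 120 min in bottles with 400 µg of malathion, and the MS group was field females knocked down or dead in the same exposure. The WI group was unexposed field females reared from eggs collected in Houston, Texas. The CO group was unexposed females of the Sebring strain reared under the same conditions. Both groups were collected at 3 days old. The exposure of MR and MS was also at 3 days old, so MR was older at collection by the 24 h of holding. The methods give the egg collection for WI and call the females of the exposure field captured. In MR over WI, age, exposure and the choice of survivors cannot be told apart. In MS over WI, exposure and the state of females knocked down or dead cannot be told apart. WI against CO was thus the comparison of field and colony without exposure, while MR and MS differed in outcome and in the time of collection. The Sebring strain was founded from Florida mosquitoes and long kept in laboratories. The colony was 1 strain and the field groups came from 1 area, so laboratory rearing and geographic origin cannot be told apart. Library totals were 143972261 to 189723320 counts, and the libraries of a group correlated with a median r of 0.885 to 0.957 on the log2 scale, with the lowest values in CO. The labels call the replicates biological and the methods call them technical, so p-values measure the spread between pools. In RNA of whole bodies, fewer cells of a type and less RNA per cell cannot be told apart.

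A gene with almost no counts in a strain may be missing from its genome, may differ so much in sequence that its reads do not align, or may not be transcribed, and counts per gene cannot tell these apart. Reads had been aligned to the VectorBase assembly CpipJ2.4 of this species. Cytochrome P450s are heme enzymes that oxidise insecticides and other foreign compounds, serine endopeptidases include the digestive proteases of the gut, and cuticle proteins form the outer layer of the insect with chitin. An annotation could be given to 8 of the 40 genes, with 1 cytochrome P450 (*CYP6Z16*), 2 genes of serine-type endopeptidase activity, 2 of oxidoreductase activity, 2 structural constituents of cuticle and 1 ester hydrolase, and 32 genes are known here by identifier alone.

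The on and off state per library is a description, since the rule fixed part of it. A gene was called on in a library at 1 CPM or more and off at 0.2 CPM or less. In the field libraries 33 to 38 of the 40 genes were on in MR, 36 to 37 in MS and 30 to 37 in WI. In each of the 5 CO libraries 0 were on. A CO mean of at most 0.2 CPM keeps each CO library at or under 1 CPM, so this 0 followed from the rule. The off limit of 0.2 CPM is also the limit that the rule set on the CO mean. Genes off numbered 0 to 1 per MR library, 0 to 1 per MS library and 0 to 2 per WI library, against 33 to 38 per CO library. No gene passed 0.425 CPM in any CO library. In 36 genes all 15 field libraries lay above all 5 CO libraries, a pattern found in 2.17% of all tested genes but one that the rule favoured. The other 4 (CPIJ004599, CPIJ008779, CPIJ011287 and CPIJ013278) had at least 1 field library at or under the highest CO value.

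**Figure D1:**
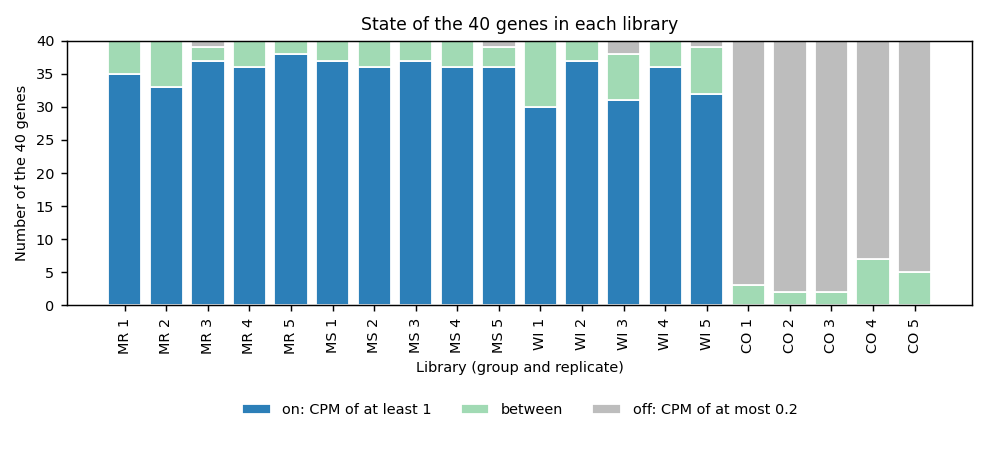
Stacked bars give, for each of the 20 libraries (MR, MS, WI and CO, replicates 1 to 5), the number of the 40 genes that were on (CPM of at least 1), between, or off (CPM of at most 0.2). Between 30 and 38 genes were on in each field library. In each CO library 33 to 38 were off and 0 were on, and the 0 followed from the rule.

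Seen by gene, 29 genes were off in all 5 CO libraries, 5 in 4 of them, 4 in 3 and 2 in 2. In the field 17 genes were on in all 15 libraries and 35 were off in none. The 5 others were off in 1 field library each. These were CPIJ014174 (MR 3, that is, replicate 3 of MR), CPIJ008779 (MS 5), CPIJ004599 and CPIJ039832 (WI 3) and CPIJ013278 (WI 5). CPIJ014174 was on in the fewest field libraries, 7 of 15.

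Near silence in CO was mostly a low count and not a count of 0. Of the 40 genes, 11 had a count in every CO library, 25 were at 0 counts in 1 to 4 of them, and 4 were at 0 counts in all 5. Genes with at least 1 count numbered 19 (CO 4) to 33 (CO 3) per CO library, against 39 in WI 5 and 40 in each of the other 14 field libraries. The 40 genes together held 451 to 678 counts per CO library, a summed level of 2.23 to 3.36 CPM. Their summed level was 567 to 1379 CPM in MR, 2059 to 3576 CPM in MS and 202 to 265 CPM in WI, and most of the sum in MR and MS came from the 2 genes CPIJ003474 and CPIJ003477.

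The 4 genes with no count in any CO library were CPIJ014195, CPIJ039823, CPIJ013278 and CPIJ007448, none of which has an annotation in the sources used here. With a floor of 3 counts over the 5 CO libraries, which covers counting error only, WI was at least 7841-fold higher than CO for CPIJ014195, at least 5473-fold for CPIJ039823, at least 2182-fold for CPIJ013278 and at least 385-fold for CPIJ007448. These bounds leaned on single WI libraries for CPIJ013278 (at least 138-fold without WI 4) and CPIJ014195 (at least 3016-fold without WI 3). CPIJ015936 had 1 count and CPIJ019310 had 2 counts in CO. The ratio of WI to CO was 16589 for CPIJ015936 (95% counting interval 2977 to 655217) and 916 for CPIJ019310 (254 to 7567), both from CO counts pooled over the 5 libraries. Over the 36 genes with a CO count the ratio of the WI mean to the CO mean ran from 11.9 to 18579 (CPIJ015936, from means over libraries) with a median of 48.9, and the rule itself fixed it at 5 or more.

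**Figure D2:**
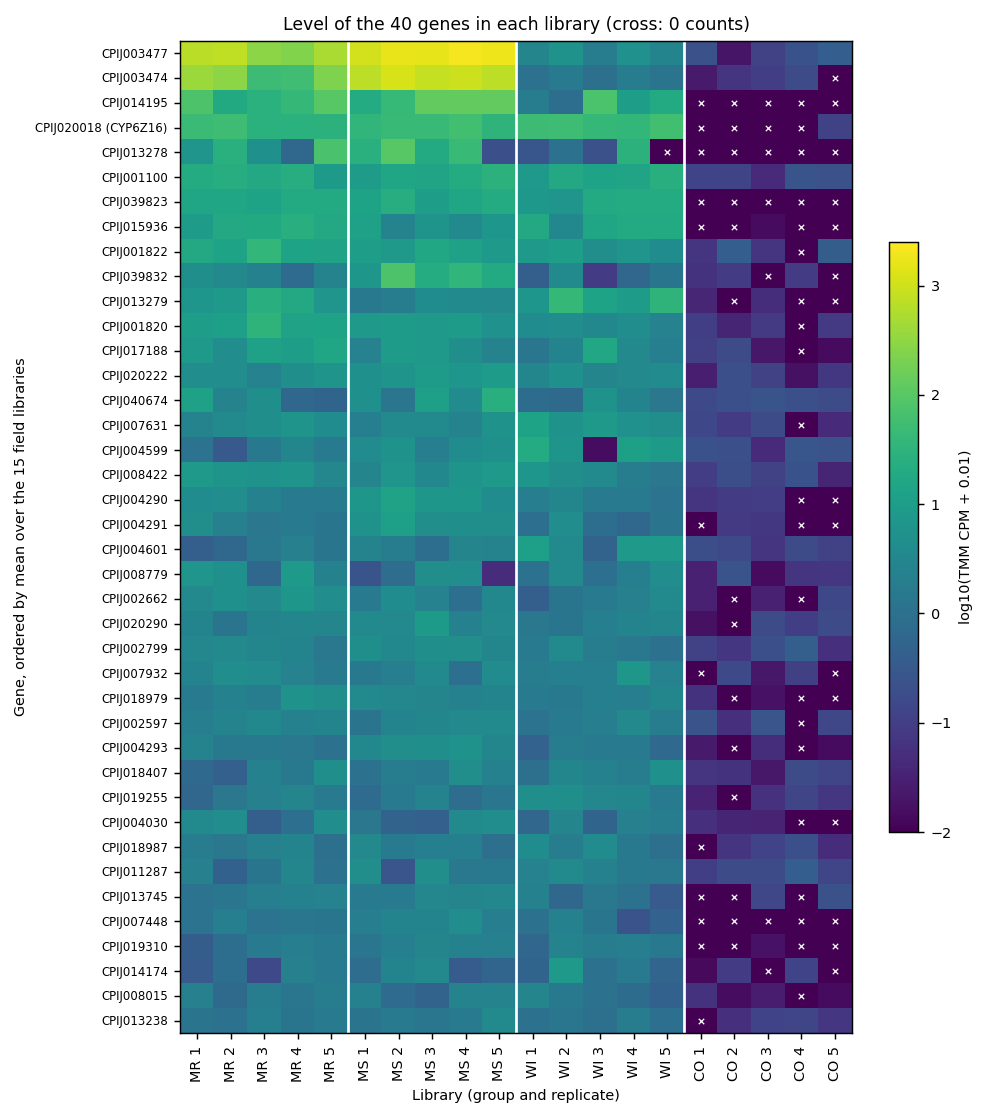
The map shows log10(TMM CPM + 0.01) of the 40 genes (rows, ordered by their mean over the 15 field libraries) in each library (columns, MR, MS, WI and CO), with a cross where a library had 0 counts. The CO block is dark in all rows, 4 rows carry crosses in all 5 CO libraries, and the top 2 rows, CPIJ003477 and CPIJ003474, are bright in MR and MS but not in WI.

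The levels of the set were modest in the field. The group means of the 40 genes had a median of 2.98 CPM in MR (1.06 to 494), 4.19 CPM in MS (1.44 to 1660) and 2.48 CPM in WI (1.07 to 47.8), against 0.0547 CPM in CO (0 to 0.192). The mean over the field libraries had a median of 3.29 CPM for the 40 genes and of 5.04 CPM for all tested genes, and 17 of the 40 lay above 5.04 CPM. Between pools of a field group they varied widely. The SD within field groups on the log2 scale had a median of 0.760 over the 40 genes (0.347 to 3.43) and of 0.468 over all tested genes, with 95% of the 40 above 0.468. The 2 sets were not matched for level.

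The same rule applied to other groups found fewer genes. With MR or WI in the place of CO it found 0 genes each, and with MS in the place of CO it found 12. MR, MS and WI all came from the field and CO was a separate strain, so these counts are not a like comparison for CO. The mirror rule, at least 1 CPM in CO and at most 0.2 CPM in MR, MS and WI, found 9 genes. In all, 2415 of the tested genes (13.8%) had a mean of at most 0.2 CPM in CO, so that most genes near silent in the colony were also low in at least 1 field group.

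*CYP6Z16* (CPIJ020018) was the only member of the set among the 94 P450, glutathione S-transferase (GST) and esterase genes listed by the study, a list that was itself chosen on these libraries. CYP6Z enzymes of *Anopheles gambiae* are known to metabolise insecticides. *CYP6Z16* had 47, 52, 27.4, 28.1 and 29.6 CPM in MR, 36.3, 45, 43.9, 57.7 and 33.2 CPM in MS, 49.8, 54, 39.9, 38.2 and 57.2 CPM in WI, and 0, 0, 0, 0 and 0.1001 CPM in CO. It was on in all 15 field libraries and off in all 5 CO libraries, where CO 5 held its 23 counts and the others held none. The WI mean was 47.8 ± 8.44 CPM against 0.02 ± 0.0448 CPM in CO (SD, n = 5 each). It had the narrowest range of the 40 genes over the field libraries, 2.11-fold between lowest and highest.

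The level of *CYP6Z16* did not pass the test in any contrast among the field groups, whose ranges overlapped. The log2 fold change was −0.23 ± 0.49 (SE) in MR over MS, −0.38 ± 0.49 in MR over WI and −0.15 ± 0.49 in MS over WI (edgeR FDR 0.847, 0.744 and 0.865). The spread behind these SEs was fitted over all 20 libraries, so the near silent CO libraries entered it and the SEs do not measure the field groups alone. The SD of *CYP6Z16* within field groups was 0.347 on the log2 scale. With library size alone in place of TMM the MR over MS value was 0.38, still not called. The other CYP6Z genes on the study's list were not near silent in CO. *CYP6Z14* averaged 60.9 ± 19.9 CPM in MR, 55.1 ± 12.6 CPM in MS, 83.6 ± 29.2 CPM in WI and 12.4 ± 4.83 CPM in CO. *CYP6Z10* averaged 33.6 ± 9.80, 61.3 ± 20.2 and 34 ± 6.51 CPM in MR, MS and WI and 53.4 ± 12.2 CPM in CO, and *CYP6Z13P* averaged 1.87 ± 0.529, 4.30 ± 1.06 and 0.540 ± 0.186 CPM in MR, MS and WI and 0.493 ± 0.156 CPM in CO (SD, n = 5 each). *CYP6Z13P* rose by 1.79 ± 0.33 in MR over WI and by 2.99 ± 0.34 in MS over WI and fell by 1.2 ± 0.32 in MR over MS (log2, SE, edgeR FDR 0.00113, 1.37e-06 and 0.0250). Reads shared between close copies of this family could move these values, since the counting of reads with several matches is not given in the sources used here.

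Of the other 93 genes on the study's list, taken from families of detoxification enzymes, none met the rule. The study identified more genes of these families than it listed, and those off the list were not looked up in the set. The GST gene CPIJ002675, of a family that conjugates glutathione to toxic compounds, came near the rule. It had 0.290 ± 0.426 CPM in CO, where the libraries ran from 0.00828 to 1.04 CPM, and 9.24 ± 3.58 CPM in WI. On the list of 94 genes 18 rose and 16 fell in MR over MS (19.1% and 17%, beside 2.76% and 4.18% of all tested genes at an edgeR FDR under 0.05). In MR over WI 8 rose and 12 fell (8.51% and 12.8%, beside 4.95% and 3.99%), and in MS over WI 17 rose and 30 fell (18.1% and 31.9%, beside 12.3% and 11%). The study chose these 94 genes by their differences in these same libraries, MR set against MS and WI set against CO, so the counts are no independent evidence about the list.

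Among the field groups the test called 11 of the 40 genes in at least 1 contrast. In MR over MS 2 genes rose and 3 fell, which is 5% and 7.5% of the set beside 2.76% and 4.18% of all tested genes. In MR over WI 3 rose and 1 fell, 7.5% and 2.5% beside 4.95% and 3.99%. In MS over WI 8 rose and 3 fell, 20% and 7.5% beside 12.3% and 11%. The median log2 fold change of the 40 genes was −0.33 in MR over MS, 0.36 in MR over WI and 0.49 in MS over WI, beside 0.04, −0.01 and −0.07 over all tested genes. With library size alone the median of all genes moved to 0.62 in MR over MS and to −0.58 in MS over WI, and that of the 40 genes to 0.27 and −0.05. The median of the 40 genes thus lay below that of all genes in MR over MS, and above it in MS over WI, under both scalings.

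All 11 genes called in at least 1 contrast were called in MS over WI, and 29 genes were called in none. Contrasts that share a group share its libraries, so they do not repeat each other independently. Of the 20 calls, 11 held when each of the 20 libraries was left out in turn, and the other 9 were lost without at least 1 library.

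**Figure D3:**
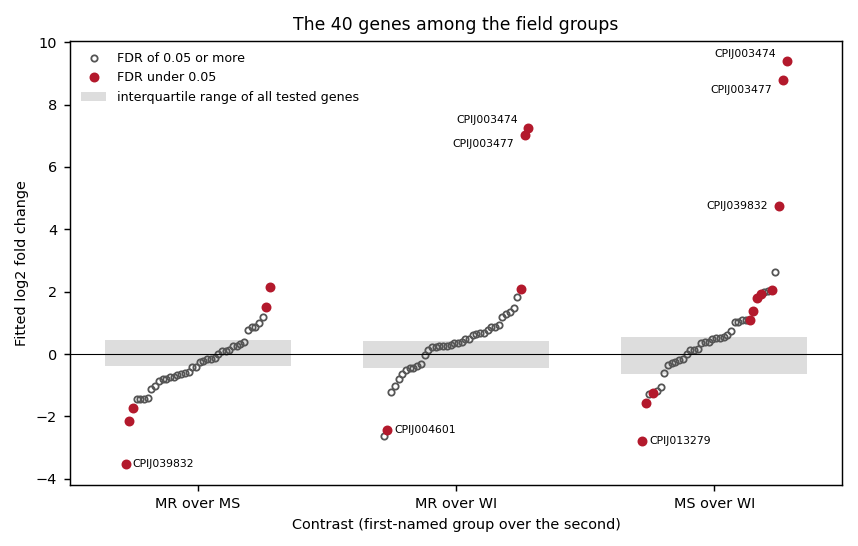
Points are the fitted log2 fold changes of the 40 genes in MR over MS, MR over WI and MS over WI, filled where the FDR was under 0.05 (5, 4 and 11 genes), and grey boxes span the interquartile range of all 17499 tested genes. CPIJ003474 and CPIJ003477 stand above 7 over WI in both exposed groups, and most open points lie within or near the grey boxes.

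The largest changes were in CPIJ003474 and CPIJ003477, genes without annotation in the sources used here. CPIJ003474 had 393, 290.4, 51.4, 56.7 and 229 CPM in MR, 742, 1201, 835, 989 and 721 CPM in MS, 1.07, 1.6, 0.958, 1.83 and 1.19 CPM in WI, and 0.0144, 0.0563, 0.0870, 0.164 and 0 CPM in CO. All MS libraries lay above all MR libraries, all MR above all WI, and all WI above all CO, with MR 3 and MR 4 the lowest of MR. CPIJ003477 had 681, 757, 289.5, 236 and 508 CPM in MR, 1092, 1673, 1552, 2161 and 1820.5 CPM in MS, 2.91, 6.08, 1.93, 5.40 and 2.67 CPM in WI, and 0.206, 0.0102, 0.0994, 0.216 and 0.392 CPM in CO. The order of the groups was the same without overlap, MR 3 and MR 4 were again the lowest of MR, and 3 of the 5 CO libraries were above 0.2 CPM.

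CPIJ003474 rose by 9.40 ± 0.78 (log2, SE) in MS over WI, a 676-fold change, and by 7.26 ± 0.72 in MR over WI, a 154-fold change (edgeR FDR 2.39e-08 and 1.25e-06). CPIJ003477 rose by 8.77 ± 0.67 in MS over WI and by 7.02 ± 0.62 in MR over WI (FDR 7.64e-09 and 5.62e-07). Among all tested genes they ranked 8 and 12 by rise in MS over WI and 15 and 19 in MR over WI, and these 4 calls held without any 1 library. In MR over MS they fell by 2.14 ± 0.57 and 1.75 ± 0.49 on the log2 scale (FDR 0.0237 and 0.0327). The MR over MS call of CPIJ003474 was lost without MR 3, MR 4, MR 5 or MS 2 (FDR 0.0514 to 0.0637), and that of CPIJ003477 without MR 3, MR 4, MR 5, MS 2, MS 4 or MS 5 (FDR 0.0538 to 0.0922). With library size alone both MR over MS calls were lost (FDR 0.0728 and 0.116). CPIJ003477 left the set without CO 2 (mean in CO 0.227 CPM) or CO 3 (0.2004 CPM).

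CPIJ039832 had a similar order of groups at lower levels. It had 4.95, 3.43, 2.37, 0.758 and 2.65 CPM in MR, 7.36, 79.6, 21.9, 36.3 and 19.6 CPM in MS, 0.411, 3.86, 0.0823, 0.598 and 1.27 CPM in WI, and 0.0505, 0.0819, 0, 0.0820 and 0 CPM in CO. All MS libraries lay above all MR and all WI libraries, MR and WI overlapped, and WI 3 lay at the level of CO. It rose by 4.73 ± 0.90 in MS over WI and fell by 3.54 ± 0.85 in MR over MS (log2, SE, edgeR FDR 0.000512 and 0.0129), and both calls held without any 1 library. MR over WI was 1.19 ± 0.79 (FDR 0.422). Its WI mean rested on WI 2, without which it was 0.597 CPM, under the limit of the rule.

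**Figure D4:**
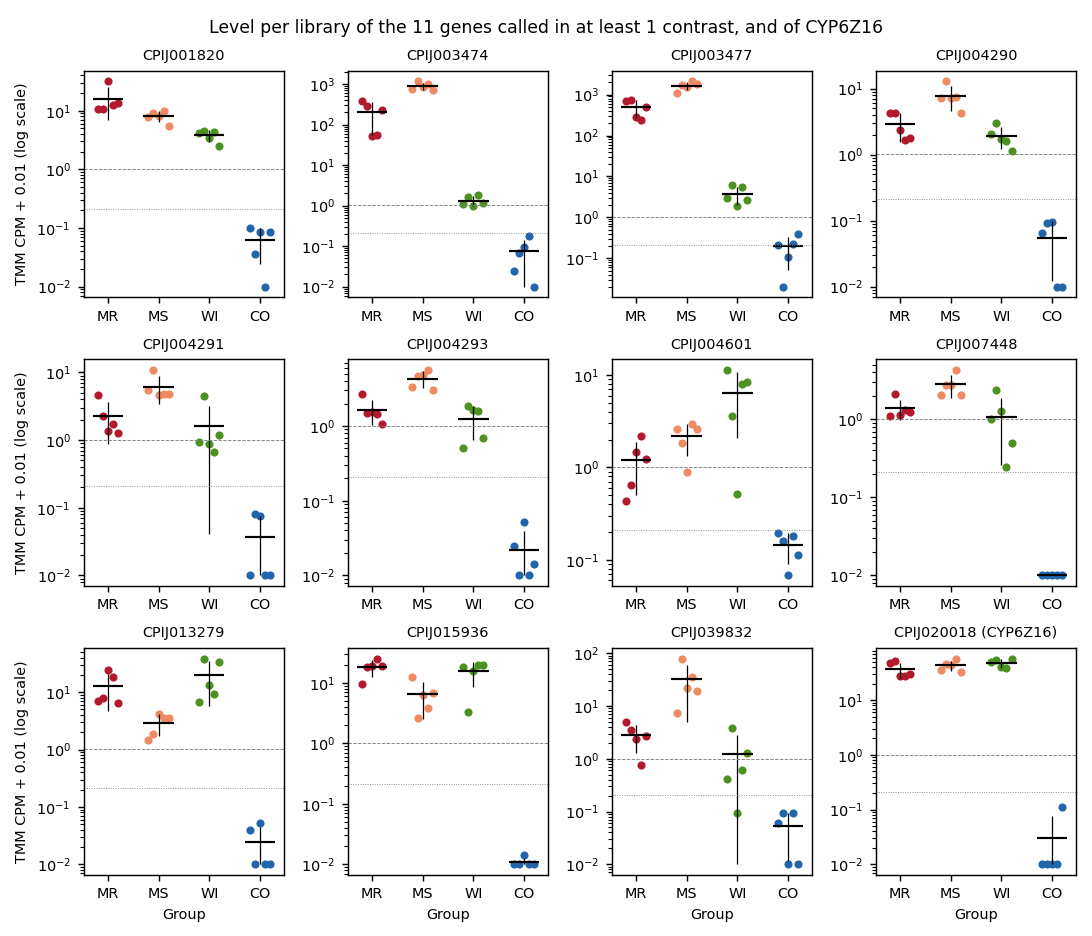
Each panel shows 1 gene, the 11 genes called in at least 1 contrast and *CYP6Z16*, as TMM CPM + 0.01 on a log axis, with 5 libraries per group (points), the mean (horizontal bar) and the SD (vertical line, stopped at 0 CPM). Dashed and dotted lines mark 1 and 0.2 CPM. CPIJ003474, CPIJ003477 and CPIJ039832 were highest in MS, CPIJ013279 and CPIJ015936 were lowest in MS among the field groups, and *CYP6Z16* had overlapping ranges in the 3 field groups.

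The 2 cuticle genes of the set, CPIJ004290 and CPIJ004293, rose in MS over WI. Structural cuticle proteins bind chitin and harden the body wall. CPIJ004290 had 4.29, 4.32, 2.38, 1.64 and 1.78 CPM in MR, 7.24, 13, 7.17, 7.38 and 4.27 CPM in MS, 2.07, 2.98, 1.73, 1.6 and 1.12 CPM in WI, and 0.0541, 0.0819, 0.0870, 0 and 0 CPM in CO. CPIJ004293 had 2.65, 1.48, 1.51, 1.42 and 1.05 CPM in MR, 3.27, 4.67, 4.85, 5.66 and 3.00 CPM in MS, 0.491, 1.82, 1.64, 1.56 and 0.678 CPM in WI, and 0.0144, 0, 0.0414, 0 and 0.00435 CPM in CO. In both genes all MS libraries lay above all WI libraries, while MR overlapped WI. The rise in MS over WI was 2.04 ± 0.55 for CPIJ004290 and 1.79 ± 0.50 for CPIJ004293 (log2, SE, edgeR FDR 0.00960 and 0.0124). Both calls held without any 1 library and were lost with library size alone (FDR 0.0777 and 0.0963). In MR over MS they were −1.44 ± 0.54 and −1.40 ± 0.50 (FDR 0.118 and 0.0963), which did not pass.

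CPIJ004291, whose identifier number lies between those of the cuticle genes and which has no annotation here, had 4.63, 2.27, 1.37, 1.71 and 1.27 CPM in MR, 5.55, 11, 4.59, 4.87 and 4.76 CPM in MS, 0.929, 4.42, 0.866, 0.659 and 1.19 CPM in WI, and 0, 0.0716, 0.0663, 0 and 0 CPM in CO. All MS libraries lay above all WI libraries, and MS 2 and WI 2 stood apart as the highest of their groups. It rose by 1.93 ± 0.70 in MS over WI (log2, SE, edgeR FDR 0.0490). The call held without MR 1, WI 2 or any 1 CO library and was lost without each of the other 13 libraries (FDR 0.0525 to 0.125), as it was with library size alone in place of TMM factors (FDR 0.121) and with no filter on low counts (FDR 0.0508). Without WI 2 its WI mean was 0.920 CPM, so that it left the set.

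CPIJ007448, at 0 counts in all CO libraries, had 1.11, 2.09, 1.14, 1.32 and 1.23 CPM in MR, 2.08, 2.74, 2.77, 4.33 and 2.07 CPM in MS, and 1.02, 2.35, 1.26, 0.234 and 0.493 CPM in WI. MS overlapped both other field groups, WI through WI 2. It rose by 1.38 ± 0.48 in MS over WI (log2, SE, edgeR FDR 0.0437), and the call was lost without MR 1, MR 4, MR 5, MS 2, MS 3, MS 4, WI 1, WI 3, WI 4 or WI 5 (FDR 0.0508 to 0.109) and with library size alone (FDR 0.21). Without WI 2 the WI mean was 0.759 CPM and the gene left the set.

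CPIJ001820 rose in both exposed groups over WI. It had 10.7, 10.9, 32.2, 12.6 and 13.6 CPM in MR, 7.84, 9.20, 8.19, 9.79 and 5.41 CPM in MS, 4.22, 4.51, 3.36, 4.33 and 2.48 CPM in WI, and 0.0902, 0.0256, 0.0745, 0 and 0.0740 CPM in CO. The 4 groups did not overlap, and MR 3 stood far above the other MR libraries. It rose by 2.08 ± 0.41 in MR over WI (log2, SE, edgeR FDR 0.00199), a call that held without any 1 library. In MS over WI it rose by 1.10 ± 0.40 (FDR 0.0492), a call that held without MR 3, MS 5, CO 1, CO 2 or CO 4 and was lost without each of the other 15 libraries (FDR 0.0534 to 0.112), with library size alone (FDR 0.392) and with no filter (FDR 0.0516). In MR over MS it was 0.99 ± 0.40 (FDR 0.147), which did not pass.

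CPIJ001822, an unannotated gene with an identifier 2 numbers away, had 17.7, 13.8, 37.4, 13.3 and 13 CPM in MR, 10.3, 8.15, 17.4, 12.2 and 8.25 CPM in MS, 7.78, 10.6, 4.71, 6.68 and 4.31 CPM in WI, and 0.0541, 0.399, 0.0580, 0 and 0.374 CPM in CO. MR 3 was again the highest field library, and CO 4 had no count of either gene. MR over WI was 1.48 ± 0.57 (log2, SE, edgeR FDR 0.115) and was not called. Without CO 3 or CO 4 its CO mean was 0.201 or 0.223 CPM, over the limit of the rule.

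CPIJ013279 and CPIJ015936, both unannotated here, were lower in MS than in either other field group. CPIJ013279 had 7.03, 7.89, 24.7, 18.2 and 6.57 CPM in MR, 1.48, 1.83, 4.19, 3.57 and 3.54 CPM in MS, 6.76, 38.6, 13.6, 9.18 and 33.2 CPM in WI, and 0.0289, 0, 0.0414, 0 and 0 CPM in CO. All MS libraries lay below all MR and all WI libraries. It fell by 2.79 ± 0.59 in MS over WI and rose by 2.14 ± 0.57 in MR over MS (log2, SE, edgeR FDR 0.00131 and 0.0251). The MS over WI call held without any 1 library, and the MR over MS call was lost without MR 3, MR 4, MS 1, MS 2, MS 4 or MS 5 (FDR 0.0532 to 0.106).

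CPIJ015936 had 9.49, 18, 19, 25.2 and 18.6 CPM in MR, 12.6, 2.63, 6.23, 3.77 and 6.82 CPM in MS, 18.5, 3.24, 15.6, 19.8 and 19.8 CPM in WI, and 0, 0, 0.00414, 0 and 0 CPM in CO. MS 1 lay within the range of MR, and WI 2 lay within that of MS. It rose by 1.49 ± 0.42 in MR over MS and fell by 1.26 ± 0.42 in MS over WI (log2, SE, edgeR FDR 0.0333 and 0.0322). The rise was lost without MR 2, MR 3, MR 4, MR 5, MS 2, MS 3, MS 4, MS 5 or CO 3 (FDR 0.0537 to 0.0985). The fall was lost without MS 2, MS 3, MS 4, MS 5, WI 1, WI 3, WI 4 or WI 5 (FDR 0.0531 to 0.0903) and in a fit of MS and WI alone (FDR 0.053).

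The 2 oxidoreductase genes, CPIJ004599 and CPIJ004601, had higher means in WI than in the exposed groups. Oxidoreductases transfer electrons between substrates, and the substrates of these enzymes are not known here. CPIJ004601 had 0.429, 0.631, 1.46, 2.19 and 1.24 CPM in MR, 2.59, 1.81, 0.879, 2.93 and 2.57 CPM in MS, 11.4, 3.63, 0.508, 7.97 and 8.48 CPM in WI, and 0.188, 0.148, 0.0580, 0.171 and 0.104 CPM in CO. CPIJ004599 had 1.14, 0.315, 1.53, 3.04 and 1.77 CPM in MR, 4.02, 5.75, 2.00, 4.16 and 5.15 CPM in MS, 21.2, 6.14, 0.00484, 11.7 and 8.93 CPM in WI, and 0.220, 0.2, 0.0373, 0.268 and 0.235 CPM in CO. In both genes WI 3 was the lowest WI library and CO 3 the lowest CO library, and without WI 3 the WI libraries would not overlap MR or MS.

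CPIJ004601 fell by 2.42 ± 0.58 in MR over WI (log2, SE, edgeR FDR 0.0101), a call that held without any 1 library. It fell by 1.57 ± 0.57 in MS over WI (FDR 0.0483), a call that held without MR 1, MR 4, WI 2, WI 3 or any of CO 1 to CO 4 and was lost without each of the other 12 libraries (FDR 0.0510 to 0.137). That call was also lost with RLE factors, with no filter, in a fit of MS and WI alone and without the 2 most counted genes (FDR 0.0506 to 0.0566). CPIJ004599 was −2.62 ± 0.86 in MR over WI (FDR 0.0594) and was not called. It was the gene closest under the CO limit, with a CO mean of 0.192 CPM, and left the set without CO 3 (0.225 CPM). CPIJ004601 left the set without MR 4, where the MR mean was 0.941 CPM.

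The 2 serine endopeptidase genes and the ester hydrolase gene were called in no contrast. Serine endopeptidases cut proteins and include trypsins of the midgut as well as enzymes of immune cascades. CPIJ001100 had 21, 23, 18, 23.1 and 8.67 CPM in MR, 9.06, 14.7, 14.2, 21 and 28.8 CPM in MS, 7.95, 18.4, 13.5, 14.3 and 24.8 CPM in WI, and 0.112, 0.118, 0.0373, 0.246 and 0.205 CPM in CO. It was on in all 15 field libraries, whose groups overlapped, and had 9 to 47 counts in every CO library. CPIJ002662 averaged 4.69 ± 1.54 CPM in MR, 2.55 ± 1.33 CPM in MS, 1.84 ± 1.23 CPM in WI and 0.0363 ± 0.0585 CPM in CO, and CO 5 held 32 of its 43 CO counts. CPIJ008015, the ester hydrolase gene, averaged 1.6 ± 0.582 CPM in MR, 1.78 ± 1.05 CPM in MS, 1.35 ± 0.944 CPM in WI and 0.0153 ± 0.0206 CPM in CO (SD, n = 5 each). Without WI 1 the WI mean of CPIJ008015 was 0.948 CPM, and it left the set.

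Some genes at 0 or near 0 in CO were uneven in the field. CPIJ013278 had 6.48, 27.2, 5.14, 0.616 and 69.4 CPM in MR, 26.9, 97.7, 20, 43.8 and 0.202 CPM in MS, and 0.274, 1.05, 0.213, 28.8 and 0 CPM in WI. Its level ran from 0 to over 90 CPM among field libraries, and its SD within field groups (3.43 on the log2 scale) ranked 1 of all 17499 tested genes. Without WI 4 its WI mean was 0.387 CPM, so that its place in the set rests on 1 library. No contrast was called for it (edgeR FDR 0.236 to 0.818). CPIJ014195 had 79.7, 19.1, 28.2, 40.4 and 97.7 CPM in MR, 21.4, 42.2, 127, 127 and 128 CPM in MS, and 1.87, 0.873, 75.5, 10.6 and 20.3 CPM in WI. WI 3 lay above 3 of the MR libraries, and MS over WI was 2.03 ± 0.87 (log2, SE, FDR 0.102).

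CPIJ039823 and CPIJ002597 had the narrowest range from the lowest to the highest field library after *CYP6Z16*. CPIJ039823 had 15.5, 14.8, 13.7, 20 and 19.7 CPM in MR, 13.3, 23.1, 10.1, 15.2 and 21.4 CPM in MS, 7.71, 6.57, 19.7, 20.7 and 21.4 CPM in WI, and 0 counts in all CO libraries. CPIJ002597 averaged 2.60 ± 0.475 CPM in MR, 2.87 ± 1.03 CPM in MS, 2.02 ± 0.893 CPM in WI and 0.133 ± 0.112 CPM in CO. Their highest field library was 3.52 and 3.49 times their lowest, and the field groups overlapped in both genes. By the SD within field groups on the log2 scale, CPIJ020222 (0.406) and CPIJ001820 (0.474) varied less than CPIJ002597 (0.538) and CPIJ039823 (0.583). Wider ranges were found in CPIJ014174, with 0.143 CPM in MR 3 and 8.33 CPM in WI 2, and in CPIJ008779, with 8.38 CPM in MR 4 and 0.0385 CPM in MS 5.

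Some of the 40 genes had neighbouring identifier numbers. A number within 3 of another member's was found for 11 genes, and a number next to another's for 4. Identifier numbers are not positions, which are not given here. The genes beside them that are named in this paragraph were chosen after their values were seen. CPIJ004292 lay between the cuticle genes in number and had 0.331, 0.813 and 0.196 CPM in MR, MS and WI, against 0.00409 CPM in CO, with the same order of groups but under the field limit. CPIJ004600, also an oxidoreductase gene, had 0.505, 1.37 and 2.37 CPM in MR, MS and WI, against 0.00251 CPM in CO, and missed the set through MR. Runs with a break were also found. CPIJ001821, between CPIJ001820 and CPIJ001822, had 2.59, 3.31 and 3.82 CPM in MR, MS and WI, against 4.47 CPM in CO. CPIJ013280, next to CPIJ013278 and CPIJ013279, had 50.9, 50.9 and 55.6 CPM in MR, MS and WI, against 47.9 CPM in CO.

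CPIJ003470, CPIJ003473 and CPIJ003476, whose numbers lie before and between those of CPIJ003474 and CPIJ003477, had the same order of groups. CPIJ003470 averaged 3027 ± 919 CPM in MR, 9510.4 ± 2358 CPM in MS, 19.8 ± 8.88 CPM in WI and 1.41 ± 0.730 CPM in CO (SD, n = 5 each). CPIJ003476 averaged 636 ± 298 CPM in MR, 2158 ± 364 CPM in MS, 5.53 ± 2.72 CPM in WI and 0.343 ± 0.25 CPM in CO. Both missed the set through their CO mean, and CPIJ003473 missed it through its WI mean of 0.791 CPM. All 3 rose in MR over WI and in MS over WI and fell in MR over MS (edgeR FDR under 0.05 in each). The run was not unbroken. CPIJ003471 and CPIJ003472 had means under 1 CPM in every group, and CPIJ003472 had 0.0312 CPM in WI against 0.0411 CPM in CO. CPIJ003471 was called in no contrast and CPIJ003472 in MS over WI alone (edgeR FDR 0.0185). CPIJ003475 had 1 count in all and was not tested. If genes of this run are close copies, reads could be shared among them, which was not tested.

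**Figure D5:**
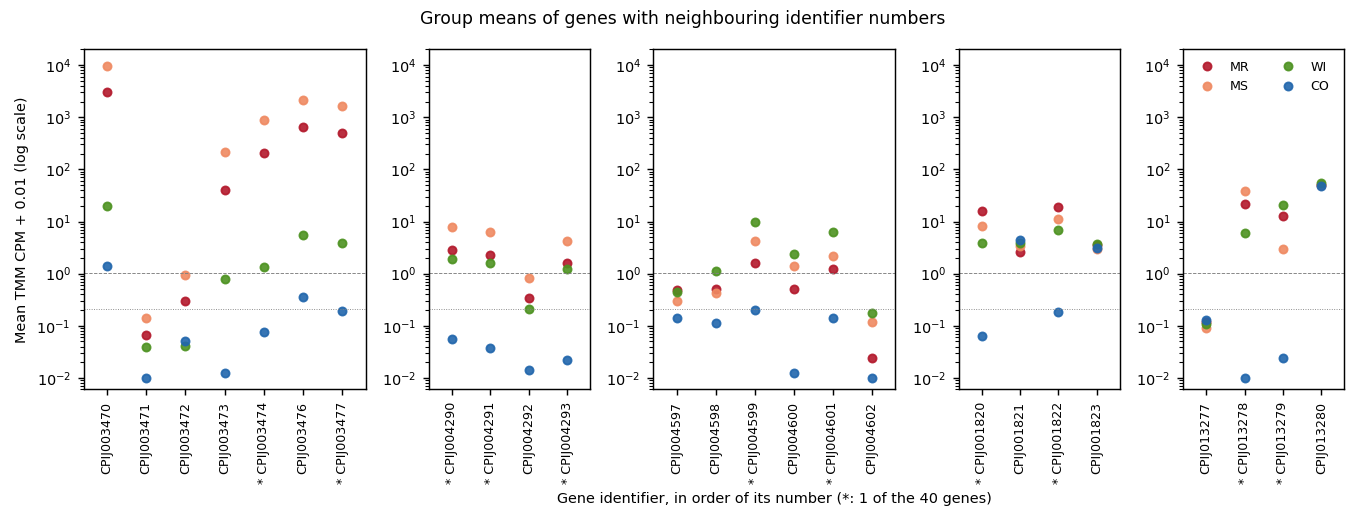
Group means (TMM CPM + 0.01, log axis) are shown for the tested genes of 5 runs of neighbouring identifier numbers, with a star at the members of the set and dashed and dotted lines at 1 and 0.2 CPM. In the first run MS lay above MR, MR above WI and WI above CO for CPIJ003470, CPIJ003473, CPIJ003474, CPIJ003476 and CPIJ003477. CPIJ001821, CPIJ001823, CPIJ013277 and CPIJ013280 had CO means close to those of the field groups.

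The other genes of the set gave no call in any contrast. Their highest group mean in the field was 10 CPM, in MR, for CPIJ017188, which had 7.90, 4.53, 12.3, 10.6 and 14.8 CPM in MR, 2.51, 9.26, 7.98, 5.00 and 2.55 CPM in MS, 1.31, 2.67, 17.7, 3.47 and 2.13 CPM in WI, and 0.0974, 0.169, 0.0124, 0 and 0.00435 CPM in CO. Before adjustment 10, 6 and 17 of the 40 genes had p under 0.05 in MR over MS, MR over WI and MS over WI, which is 25%, 15% and 42.5% beside 20.7%, 21.9% and 35.1% of all tested genes. Those that did not pass adjustment in MS over WI included CPIJ040674 (1.98 ± 0.78, FDR 0.0703), CPIJ020222 (1.03 ± 0.43, FDR 0.0919) and CPIJ002799 (1.08 ± 0.46, FDR 0.0961), and CPIJ019255 (−1.28 ± 0.56, FDR 0.103) in the other direction (log2, SE, edgeR).

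The limits of the rule cut through a run of values. Just under the CO limit stood CPIJ004599 (0.192 CPM), CPIJ011287 (0.189) and CPIJ040674 (0.189), and just over it CPIJ011997 (0.204), CPIJ013351 (0.205) and CPIJ007783 (0.209). Just over the field limit stood CPIJ014174 (1.06 CPM in MR), CPIJ007448 (1.07 in WI) and CPIJ013745 (1.16 in WI), and just under it CPIJ017928 (0.994 in MS), CPIJ004591 (0.992 in MR) and CPIJ005902, whose WI mean missed 1 CPM by less than 0.001. With a CO limit of 0.1 the set held 30 genes, and with a field limit of 2 it held 20. Leaving out each library in turn kept 28 of the 40 genes throughout. The 12 others were lost without at least 1 library, CPIJ011287 among them without CO 1 (CO mean 0.208 CPM) or CO 5 (0.204 CPM), CPIJ013745 without WI 1 (WI mean 0.848 CPM) and CPIJ014174 without MR 4, MR 5 or WI 2 (0.761 CPM in MR, 0.898 CPM in MR and 0.989 CPM in WI).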

How the data were processed

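The authors trimmed the reads with Trim Galore 0.6.4, aligned them with STAR 2.7.3a to the VectorBase genome, added read groups with Picard 2.20.1 and counted them per gene with featureCounts 1.6.0. The deposited values are raw counts per gene. The kit was directional, and how strand and multiply matching reads were counted is not given in the sources used here.

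In R 4.3.3 with edgeR 4.0.16 and limma 3.58.1, filterByExpr (count of at least 10, total of at least 15) left 17499 of 19793 genes, which were scaled by TMM. All 20 libraries were fitted with 1 mean per group, so CO shared in the estimate of spread used for the field contrasts. MR over MS, MR over WI and MS over WI were tested by the quasi-likelihood F test, with Benjamini-Hochberg FDR over all tested genes called under 0.05. Each SE was the log2 fold change over the square root of F. Log2 values used a prior count of 2. Taken over all genes together, counting error was small beside the spread between pools. Totals were 143972261 to 189723320 counts, and the mean chi-square per gene was at least 143 between libraries of a group. That mean used raw totals without TMM factors and is weighted to abundant genes. It does not describe genes near 0 counts in CO.

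Named genes were those in the study's tables, the 6 highest in the field, the 3 largest rises and falls per contrast among called genes, the annotated genes, the 3 off in the most field libraries, the 3 with the narrowest range and the 3 nearest each limit, and others were chosen after their values were seen. The 40 genes and the lists were chosen with earlier results of these data known. Annotations came from the study's tables and pathways, since the reference gene table shares 0 identifiers with the counts. Alternatives were the likelihood ratio test, DESeq2 1.42.0, RLE factors, library size alone, the absence of a filter or a stricter one, fits of 2 groups or without CO, a replicate block, a fit without the 2 most counted genes, other limits and leaving out each library.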

Additional observations from a re-analysis of the deposited data

Results flagged for a closer look

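Among 96 combinations of 25 named genes and groups, 14 held a library whose gap to the nearest other library exceeded Dixon's 95% critical value for 5 libraries (0.71). Chance gives about 1 in 20 for normal values, a rate that does not carry over to CPM near 0, so no excess is read from the count. In CO, CPIJ015936 and *CYP6Z16* were at 0 in 4 libraries, where any count in the fifth exceeds the limit. Of these, 9 fell in field groups and 5 in CO. In MR these were CPIJ001820 in MR 3 (32.2 CPM against 13.6 CPM in the next library), CPIJ004293 in MR 1 (2.65 CPM) and CPIJ007448 in MR 2 (2.09 CPM). In MS it was CPIJ004291 in MS 2 (11 CPM). In WI they were CPIJ004291 in WI 2 (4.42 CPM), CPIJ013278 in WI 4 (28.8 CPM against 1.05 CPM in the next library), CPIJ014174 in WI 2 (8.33 CPM), CPIJ014195 in WI 3 (75.5 CPM), and, as the lowest library, CPIJ015936 in WI 2 (3.24 CPM against 15.6 CPM). In CO they were CPIJ002662 in CO 5 (0.139 CPM, 32 counts), CPIJ008779 in CO 2 (0.235 CPM, 46 counts), CPIJ011287 in CO 4 (0.395 CPM, 53 counts), CPIJ015936 in CO 3 (0.00414 CPM, 1 count) and *CYP6Z16* (CPIJ020018) in CO 5 (0.1001 CPM, 23 counts). Of the 5 in WI, 3 were in WI 2.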

How the results depend on the processing

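The set held 40 genes with RLE factors and without a filter, 41 with a stricter filter, 35 with library size alone (33 shared) and 43 without the 2 most counted genes (34 shared). A CO limit of 0.5 gave 94 genes, a field limit of 0.5 gave 100 and a field limit of 2 gave 20. Leaving out 1 library gave 38 to 51 genes. Genes lower in MR than in MS were 3 as reported. They numbered 5 with the likelihood ratio test, without CO and with DESeq2 (beside 5.28%, 7.99% and 6.17% of all genes). With only the 2 groups they numbered 9 (10.3% of all genes), with library size alone 1 (0.669%) and without 1 library 1 to 4 (2.43% to 5.7%). Genes lower in MR than in WI, 1 as reported, numbered 2 with the likelihood ratio test, without CO and with DESeq2 (5.11%, 7.43% and 5.67% of all genes). Without 1 library they numbered 1 to 2 (2.48% to 5.76%). In MS over WI library size alone gave 3 higher and 5 lower (8 and 3 as reported) beside 5.1% and 21.4% of all genes, and without CO 5 were lower (16.4% of all genes). Without 1 library 5 to 10 were higher and 1 to 4 lower in MS over WI (10.3% to 14.1% and 7.88% to 13.7% of all genes). In MR over MS 0 to 3 were higher (1.61% to 4.13%), and in MR over WI 3 to 4 (3.44% to 6.18%). With library size alone the median of the 40 genes turned to 0.27 in MR over MS and −0.053 in MS over WI. *CYP6Z16* (CPIJ020018) turned to 0.38 in MR over MS. Under the same scaling the median of all genes was 0.62 in MR over MS and −0.58 in MS over WI. The causes of the changes between settings were not tested. Without 1 library the medians ran from −0.44 to −0.29 in MR over MS, 0.29 to 0.49 in MR over WI and 0.37 to 0.58 in MS over WI. With the replicate number as a block 2 genes were higher and 4 lower in MR over MS (5.91% and 8.08% of all genes). In MR over WI they were 3 and 1 (8.12% and 7.04%), and in MS over WI 10 and 3 (16.6% and 14.2%). Pairing by number was looked at after each gene's group mean was taken off its log2 values, not on the levels themselves. On these deviations, same-numbered libraries of different groups correlated at −0.02 to 0.27, and those of different numbers at −0.23 to 0.21. A library correlated best with its own number in 2, 0 and 3 of 5 cases. In MS over WI the same-numbered values of replicates 1 and 2 (0.27 and 0.23) lay above all pairs of different numbers (at most 0.13). The main fit did not pair the libraries by number, and whether same-numbered libraries share a source of spread was not tested. Whether depth or the 5 pools per group limited these comparisons more was not tested.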
